A study of Homo sapiens with 19 samples.

Results

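The DLX homeobox genes encode transcription factors related to Distal-less, a fly gene needed for limb outgrowth. All 6 human members, DLX1 to DLX6, were taken by gene symbol from the 34825 symbols of each of 2 deposited expression tables. The family was proposed with measurements of these same libraries already known, so the p-values below compare each difference with the spread between libraries and are not independent evidence that the family stands out. Every library came from HepG2, a human liver cancer cell line that keeps many hepatocyte features.

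In the first experiment, called the INO80 experiment here, cells received 50 nM of a non-targeting siRNA (NTG) or of 1 of 2 siRNAs against INO80 (siINO80#1 and siINO80#2), with 3 libraries each. INO80 is the ATPase of the INO80 chromatin remodeling complex, INO80-C. In the second, called the drug experiment, 1 µM EPZ-6438, an inhibitor of the histone methyltransferase EZH2, or DMSO as its vehicle was added 3 days before 50 nM siRNA. Its groups were DMSO NTG (2 libraries), DMSO siMCRS1 (3), EPZ-6438 NTG (3) and EPZ-6438 siMCRS1 (2), and MCRS1 is a subunit of INO80-C that also belongs to other complexes. Cells in both experiments were harvested 72 h after transfection. Nothing in the sources says that the libraries of a group came from separate cultures, so the p-values measure the spread between libraries, which may be technical. The 2 tables were scaled separately, and no test crosses them.

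DLX proteins bind DNA through a homeodomain and act in the forebrain, the branchial arches, the limb, the skeleton, the skin and the placenta. They lie in the genome as pairs whose members point at each other, and the members of a pair can share enhancers. Upstream, BMP signals can switch on DLX genes in several embryonic tissues. In cells that do not use them, DLX genes are common targets of Polycomb, whose complex PRC2 carries EZH2 and methylates lysine 27 of histone H3. None of the tissues in which the family is best known is liver.

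On GRCh38, DLX1 lies at chr2:172085507-172089674 on the plus strand and DLX2 at chr2:172099438-172102900 on the minus strand, 9763 bases apart. DLX4, at chr17:49968572-49974959, and DLX3, at chr17:49990005-49995224, are separated by 15045 bases. DLX6, at chr7:97005553-97011040, and DLX5, at chr7:97020396-97024831, are separated by 9355 bases. DLX6-AS1, a non-coding gene on the opposite strand at chr7:96968515-97014065, covers the whole of DLX6 and has no row of its own in the tables. The libraries were made with a stranded kit, but whether strand was used in counting is not given in the sources used here, so reads of DLX6 and DLX6-AS1 may not have been told apart.

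RefSeq promoter sequences (GRCh38.p14) were found for 3 of the 6 members. They are shown because these 3 are the members with an entry, and DLX1 and DLX2 are the 2 starts of 1 pair. Each run is the 250 bases before the start of the gene, on the strand of the gene, and capitals mark matches to 6 short motifs searched on both strands: the CCAAT box (CCAAT), the AP-1 site (TGAGTCA), the full CRE (TGACGTCA), the E-box (CACGTG), the YY1 site (GCCATNTT) and the homeodomain core (TAATTA). These motifs were chosen after the sequences had been read.
DLX1, chr2:172085257-172085506 (+): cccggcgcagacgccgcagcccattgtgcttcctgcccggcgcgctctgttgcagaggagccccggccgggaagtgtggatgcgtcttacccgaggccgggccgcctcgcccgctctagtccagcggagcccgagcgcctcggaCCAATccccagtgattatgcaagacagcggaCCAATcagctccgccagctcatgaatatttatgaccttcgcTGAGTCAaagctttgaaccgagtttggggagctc
DLX2, chr2:172102901-172103150 (-): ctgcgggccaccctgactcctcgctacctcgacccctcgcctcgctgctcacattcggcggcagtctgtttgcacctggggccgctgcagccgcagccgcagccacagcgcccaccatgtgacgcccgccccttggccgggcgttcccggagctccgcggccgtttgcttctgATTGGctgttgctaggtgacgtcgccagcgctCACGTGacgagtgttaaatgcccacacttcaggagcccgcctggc
DLX6, chr7:97005303-97005552 (+): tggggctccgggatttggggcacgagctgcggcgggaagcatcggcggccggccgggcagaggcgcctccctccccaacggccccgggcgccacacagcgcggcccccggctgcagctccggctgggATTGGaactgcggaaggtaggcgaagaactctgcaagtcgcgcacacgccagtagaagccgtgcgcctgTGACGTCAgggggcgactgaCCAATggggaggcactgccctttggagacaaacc

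All 3 promoters held a CCAAT box, which 32% of the 35116 RefSeq promoters of this length also hold. In DLX1 it occurred at 102 to 106 and at 71 to 75 bases before the start, and in DLX2, on the other strand as ATTGG, at 73 to 77 bases. The DLX1 promoter also held an AP-1 site at 28 to 34 bases (4.2% of all promoters), the DLX2 promoter an E-box at 40 to 45 bases (6.34%), and the DLX6 promoter a full CRE at 47 to 54 bases (1.65%). The YY1 and TAATTA letters, found in 3.86% and 4.35% of all promoters, were in none of these 3 windows. The 3 promoters held 23, 25 and 25 CpG dinucleotides, against a median of 11 over all promoters. Such matches describe the letters and say nothing of binding.

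Library depth was 17093574 to 25369547 reads with the INO80 siRNAs and their controls, and the libraries of the drug experiment held 26038505 to 47397233. The deposited values are reads divided by 1 size factor per library, called normalized counts here, and 3 reads equal 2.30 to 3.58 and 2.13 to 4.30 normalized counts in the 2 experiments. Tests used limma on log2(normalized counts + 1), two-sided, over the 14034 and 14312 genes whose mean reached 10 normalized counts. A gene was called when its p, adjusted by Benjamini and Hochberg's method, was under 0.05. Log2 differences on this scale understate the change of low genes. DLX5 fell below the filter in both tables, so 5 of the 6 members were tested in each, and DLX3 passed in the INO80 experiment through its siINO80 libraries, since its NTG mean was 9.99.

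The siRNAs lowered their targets. INO80 fell by 1.05 with siINO80#1 and by 1.46 with siINO80#2 (log2, adjusted p = 5.1e-06 and 3.59e-07), and MCRS1 fell by 3.66 with siMCRS1 in both DMSO and EPZ-6438. INO80 itself also fell with siMCRS1, by 0.27 in DMSO and 0.35 in EPZ-6438 (adjusted p = 0.0387 and 0.00966). The 9 HepG2 markers, such as ALB and AFP, summed to between 578951 and 1322060 normalized counts in every library. Among them HNF4A, a hepatocyte transcription factor, fell by 0.45 and 1.02 with siINO80#1 and siINO80#2 and by 0.55 with siMCRS1 in both media. Of the 9 markers 1, 5, 1 and 1 were called lower in these comparisons and 0, 0, 0 and 1 higher. The shares of all tested genes in the same order were 20.8%, 28.4%, 24.6% and 26.9% lower and 20.7%, 26.6%, 23.1% and 26.8% higher. With 9 markers nothing is read from the counts. Marker lists of interneurons, osteoblasts, trophoblasts, keratinocytes, fibroblasts and blood cells, among them tissues in which DLX genes act, summed to at most 956. SLC32A1, IBSP, KRT5, KRT1 and CD3E were at 0 throughout the INO80 experiment, and SP7 throughout the drug experiment.

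In HepG2 cells that received the control siRNA the 6 genes differed widely in level. Per kilobase of the longest protein-coding transcript, DLX6 led in NTG cells with 48.0 normalized counts (42.7 to 52.2 over the 3 libraries). DLX2 followed with 17.1 (9.78 to 28.0), DLX1 with 11.1 (5.21 to 16.6) and DLX4 with 7.33 (4.58 to 8.84), and each of these ranges overlapped the next. DLX3 stood lower, at 3.84 (3.32 to 4.34), and DLX5 lowest, at 1.95 (1.45 to 2.36). In DMSO NTG cells the order was again DLX6 (76.5 per kilobase), DLX2 (42.5) and DLX1 (14.8), after which DLX4 (9.95) and DLX3 (9.92) overlapped and DLX5 (3.03) was last. Thus DLX3, the gene with the largest differences below, started as one of the least expressed members.

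DLX3, a regulator of skin, hair, tooth and placental development, was higher in every INO80 knockdown library than in every control. Its normalized counts were 10.0, 11.3 and 8.64 in NTG replicates A, B and C, from 9, 11 and 9 reads. With siINO80#1 they were 52.5, 75.4 and 65.6, and with siINO80#2 they were 83.0, 85.0 and 95.4. The group means were therefore 9.99 ± 1.33 (SD, n = 3), 64.5 ± 11.5 and 87.8 ± 6.66, or 6.45-fold and 8.79-fold the control. On the log2 scale DLX3 rose by 2.57 ± 0.20 (SE) with siINO80#1 and by 3.02 ± 0.20 with siINO80#2 (limma, adjusted p = 6.47e-06 and 1.09e-06). Both comparisons use the same 3 NTG libraries.

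**Figure D1:**
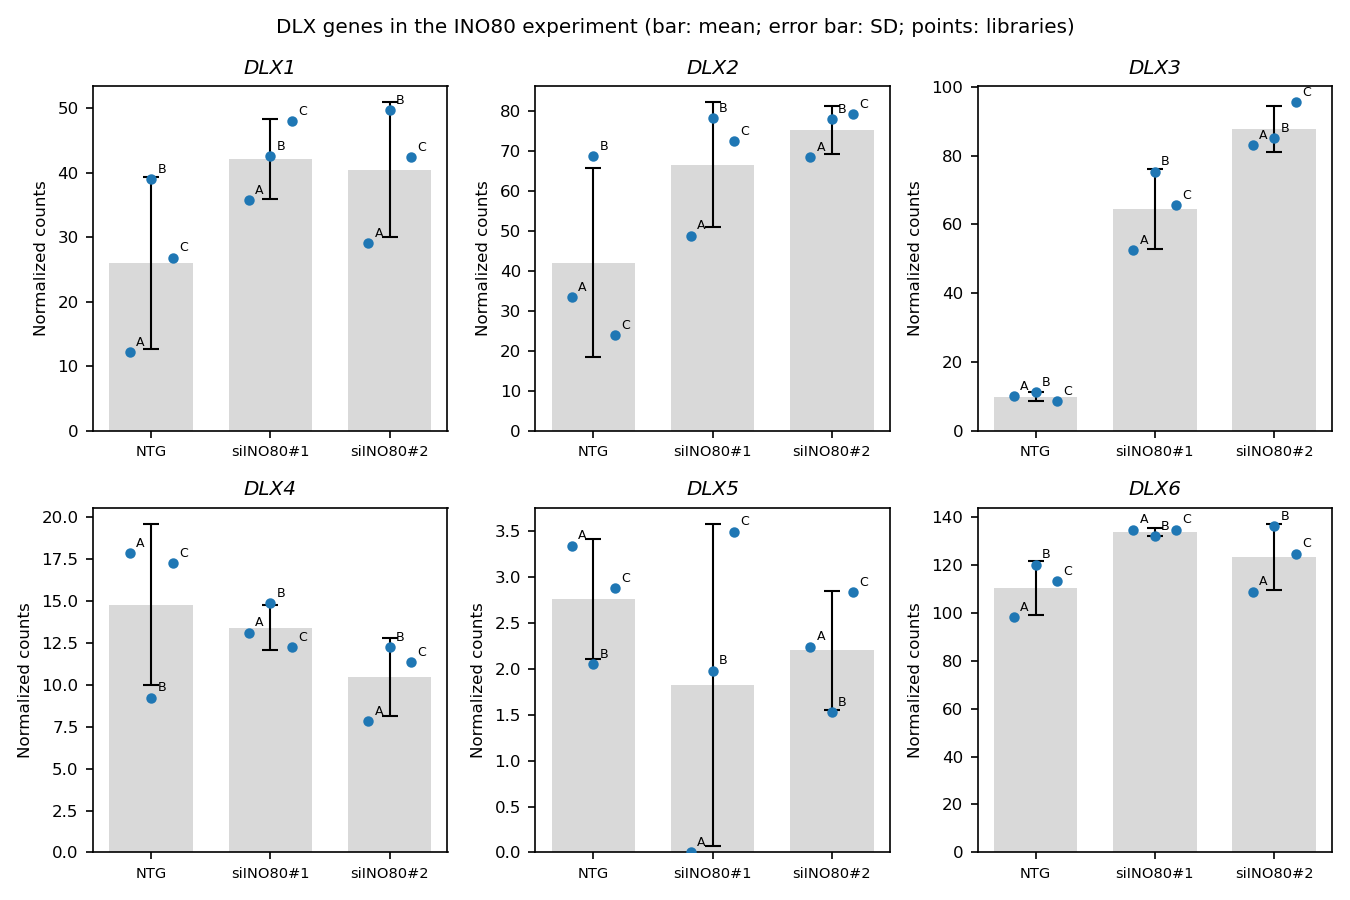
Normalized counts (y axis, linear from 0) of the 6 DLX genes in NTG, siINO80#1 and siINO80#2 libraries (x axis, n = 3 each). Bars give means, error bars SD and points libraries A, B and C; for DLX3 the controls lie between 8.64 and 11.3 and the knockdown libraries between 52.5 and 95.4, whereas the groups overlap for DLX1, DLX2 and DLX4 and counts of DLX5 stay under 4.

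DLX2, which with DLX1 directs the formation of forebrain interneurons, was less clear because its controls were scattered. It measured 33.5, 68.8 and 24.0 normalized counts in NTG, 48.9, 78.3 and 72.6 with siINO80#1 and 68.4, 78.1 and 79.4 with siINO80#2. NTG replicate B lay above 1 siINO80#1 library and just above the lowest siINO80#2 library, so the groups overlapped. DLX2 rose with siINO80#2 by 0.96 ± 0.33 (log2, SE, adjusted p = 0.0301), whereas its difference of 0.76 ± 0.33 with siINO80#1 did not pass (adjusted p = 0.091). The call with siINO80#2 was lost without NTG replicate A or C (adjusted p = 0.0885 and 0.12) or siINO80#2 replicate B or C (0.0628 and 0.0659).

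DLX1 measured 12.3, 39.0 and 26.9 normalized counts in NTG, 35.8, 42.6 and 48.1 with siINO80#1 and 29.2, 49.8 and 42.5 with siINO80#2. Its groups overlapped through the same library, NTG replicate B, and its log2 differences of 0.80 ± 0.37 and 0.72 ± 0.37 (SE) did not pass (adjusted p = 0.107 and 0.121). Without NTG replicate B, DLX1 passed with both siRNAs (1.16 and 1.08, adjusted p = 0.0296 for each) and DLX2 passed with siINO80#1 (1.18, adjusted p = 0.00531). With the replicate letters as a block, DLX1 was also called with both siRNAs.

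DLX4, known from placenta and blood cells, had 9.24 to 17.8 normalized counts in NTG, 12.2 to 14.9 with siINO80#1 and 7.85 to 12.3 with siINO80#2. Its log2 differences of -0.08 and -0.43 did not pass, with 95% intervals from -0.82 to 0.65 and from -1.16 to 0.31. DLX6, which with DLX5 patterns limb and jaw, measured 98.1, 120.1 and 113.3 in NTG, 134.7, 131.9 and 134.7 with siINO80#1 and 108.8, 136.3 and 124.7 with siINO80#2. The siINO80#1 libraries lay above NTG without overlap, but neither difference (0.28 and 0.16) passed (adjusted p = 0.117 and 0.344). Its intervals, from -0.01 to 0.57 and from -0.14 to 0.45, were the narrowest of the family in this experiment. DLX5 never exceeded 4 reads in these 9 libraries, and no fold change is given for it.

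With siINO80#1, 1 of the 5 tested members was called higher (DLX3) and none lower, beside 20.7% of all tested genes called higher and 20.8% called lower. With siINO80#2, 2 of 5 were called higher (DLX2 and DLX3) and none lower, beside 26.6% and 28.4% of all tested genes. Since the family was selected on these contrasts, nothing is read from these counts. Between the 2 siRNAs, 0 of the 5 members differed by limma or by edgeR, although 9.48% of all genes were called higher with siINO80#2 and 12.6% lower. At an unadjusted p under 0.05 there was 1, DLX3, at 0.45 ± 0.20 (log2, SE, adjusted p = 0.136 by limma), with the 3 siINO80#2 libraries all above the 3 siINO80#1 libraries. Such a p was found for 4936 of all 14034 genes.

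Knockdown of MCRS1, in a separate set of libraries, gave higher DLX3 as well. With DMSO, DLX3 measured 23.9 and 27.7 normalized counts in the NTG libraries (replicates 1 and 3) and 152, 132 and 183 in the siMCRS1 libraries (replicates 1, 2 and 3). With EPZ-6438 it measured 9.70, 11.4 and 14.7 in NTG (replicates 1, 2 and 3) and 67.2 and 113.6 in siMCRS1 (replicates A and B). The siMCRS1 libraries lay above the NTG libraries in both media without overlap. The differences were 2.54 ± 0.30 in DMSO and 2.79 ± 0.30 in EPZ-6438 (log2, SE, adjusted p = 0.000103 and 3.73e-05), or 6.04-fold and 7.58-fold by the means.

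**Figure D2:**
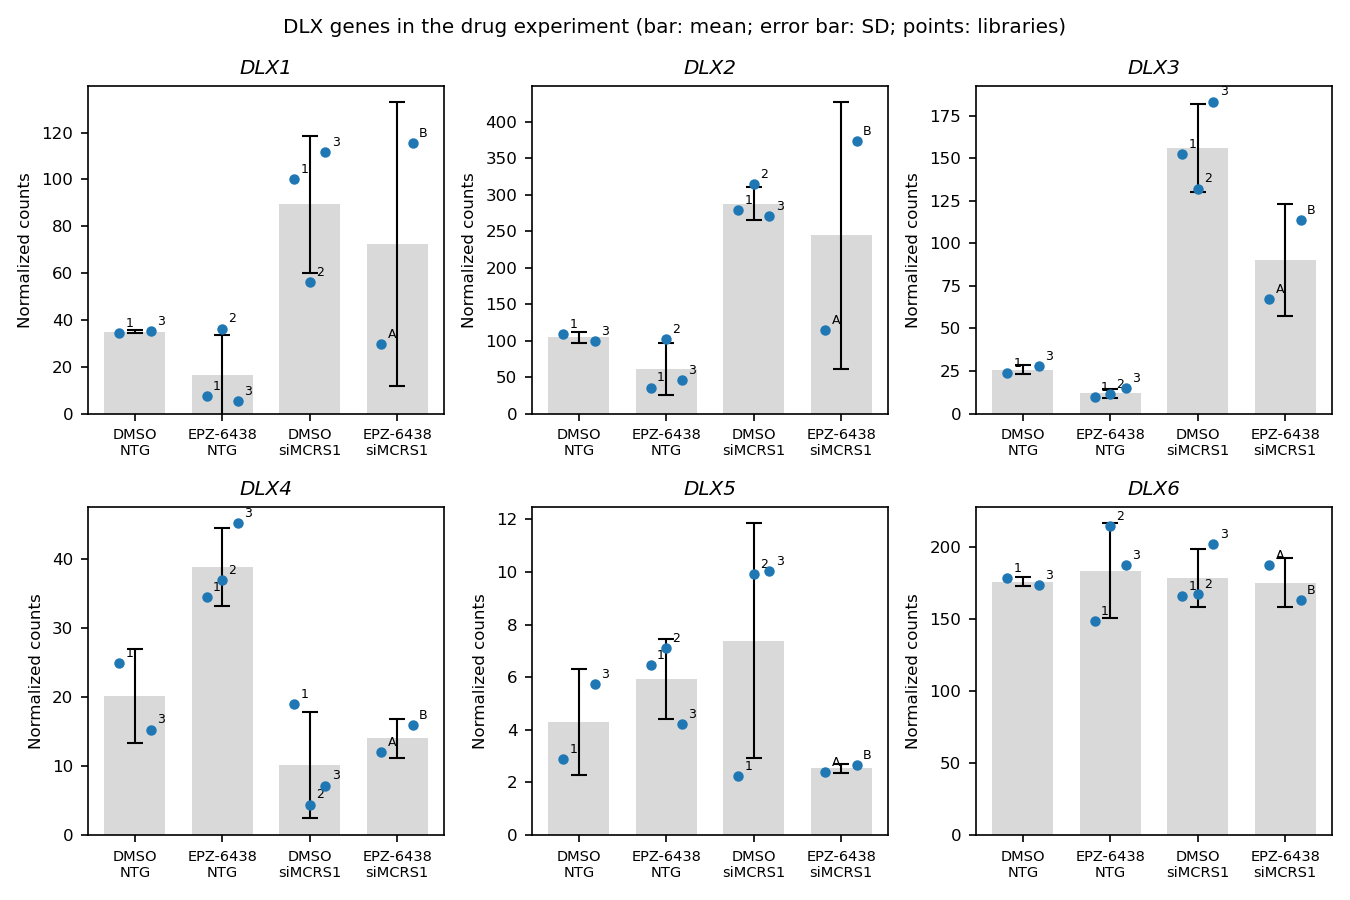
Normalized counts (y axis, linear from 0) of the 6 DLX genes in the 4 groups of the drug experiment (x axis; DMSO NTG and EPZ-6438 siMCRS1 n = 2, the others n = 3). Bars give means, error bars SD, cut at 0 for DLX1, and points libraries with their numbers or letters; DLX1 and DLX2 spread widely within both EPZ-6438 groups, DLX4 is highest in EPZ-6438 NTG (34.5 to 45.2), and DLX6 ranges from 149 to 215 throughout.

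DLX2 also rose with siMCRS1. It measured 109 and 99.3 normalized counts in DMSO NTG and 278, 314 and 271 in DMSO siMCRS1, without overlap and 2.76-fold apart by the means. The log2 difference was 1.45 ± 0.48 (SE, adjusted p = 0.0278), and the call was lost without DMSO NTG replicate 1 or 3 (adjusted p = 0.0941 and 0.114) or DMSO siMCRS1 replicate 2 or 3 (0.0742 and 0.0514). In EPZ-6438, DLX2 measured 35.6, 102 and 46.3 in NTG and 114 and 374 in siMCRS1, a log2 difference of 1.88 ± 0.48 (adjusted p = 0.00678). Without EPZ-6438 siMCRS1 replicate B this became 1.04 (adjusted p = 0.104).

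DLX1 measured 34.5 and 35.3 normalized counts in DMSO NTG and 100.2, 56.2 and 112 in DMSO siMCRS1, without overlap, but with a log2 difference of 1.27 ± 0.73 (SE) that did not pass (adjusted p = 0.173). In EPZ-6438 it measured 7.54, 36.2 and 5.26 in NTG and 29.6 and 115 in siMCRS1. There the groups overlapped, since EPZ-6438 NTG replicate 2 lay above siMCRS1 replicate A, and the difference of 2.25 ± 0.73 passed (adjusted p = 0.0229). It no longer passed without EPZ-6438 NTG replicate 1 or 3 (adjusted p = 0.0665 and 0.0741) or without siMCRS1 replicate B (1.28, adjusted p = 0.252).

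DLX4 went the other way from DLX3, its neighbor on chromosome 17. It measured 24.9 and 15.3 normalized counts in DMSO NTG, 18.9, 4.41 and 7.16 in DMSO siMCRS1, 34.5, 36.9 and 45.2 in EPZ-6438 NTG and 12.0 and 16.0 in EPZ-6438 siMCRS1. In EPZ-6438 the groups did not overlap and DLX4 fell by 1.42 ± 0.51 (log2, SE, adjusted p = 0.0359), a call that was lost when any 1 of the 5 EPZ-6438 libraries was left out (adjusted p from 0.0554 to 0.159). In DMSO the groups overlapped through DMSO siMCRS1 replicate 1, and the difference of -1.10 ± 0.51 did not pass (adjusted p = 0.0976). Without that library it was -1.63 (adjusted p = 0.00916).

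DLX6 was close to level throughout, at 178 and 174 normalized counts in DMSO NTG, 166, 167 and 202 in DMSO siMCRS1, 149, 215 and 187 in EPZ-6438 NTG, and 187 and 163 in EPZ-6438 siMCRS1. Its differences with siMCRS1 were 0.01 in DMSO (95% interval -0.40 to 0.43) and -0.05 in EPZ-6438 (-0.47 to 0.36), and both intervals are narrower than those of DLX1 to DLX4. DLX5, which drives bone and limb formation, had 2.23 to 10.0 normalized counts in the 10 libraries, from 2 to 10 reads.

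With siMCRS1 in DMSO, 2 of the 5 tested members were called higher (DLX2 and DLX3) and none lower, beside 23.1% and 24.6% of all tested genes. In EPZ-6438, 3 were called higher (DLX1, DLX2 and DLX3) and 1 lower (DLX4), beside 26.8% and 26.9%. The difference between the siMCRS1 effects in the 2 media was tested as an interaction. It was called for 0 of the 5 members and 0% of all genes in either direction by limma, and for 0 genes by edgeR. At an unadjusted p under 0.05 there were 336 genes by limma and 344 by edgeR, and no member among those of limma. The interaction intervals were wide for DLX1 (-1.30 to 3.24) and DLX3 (-0.68 to 1.18), so equal effects in the 2 media are not shown.

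The balance of higher and lower calls depended on scaling. When every library was instead scaled to the same total, the median of all genes shifted to -0.23 with siMCRS1 in both DMSO and EPZ-6438, -0.11 with siINO80#2 and -0.08 with siINO80#1 (log2). The calls then split into 1894 higher and 5098 lower with siMCRS1 in DMSO, against 3307 and 3523 with the deposited scaling, and into 2296 and 5313 against 3839 and 3847 in EPZ-6438. With siINO80#1 they split into 2165 and 3276 against 2912 and 2921, and with siINO80#2 into 2856 and 4526 against 3733 and 3992. DLX3 was called with equal totals in all 4 comparisons of an siRNA with NTG, DLX2 was no longer called with siINO80#2 (0.85, adjusted p = 0.0556), and the sign of DLX6 with siMCRS1 in DMSO turned to -0.22.

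**Figure D3:**
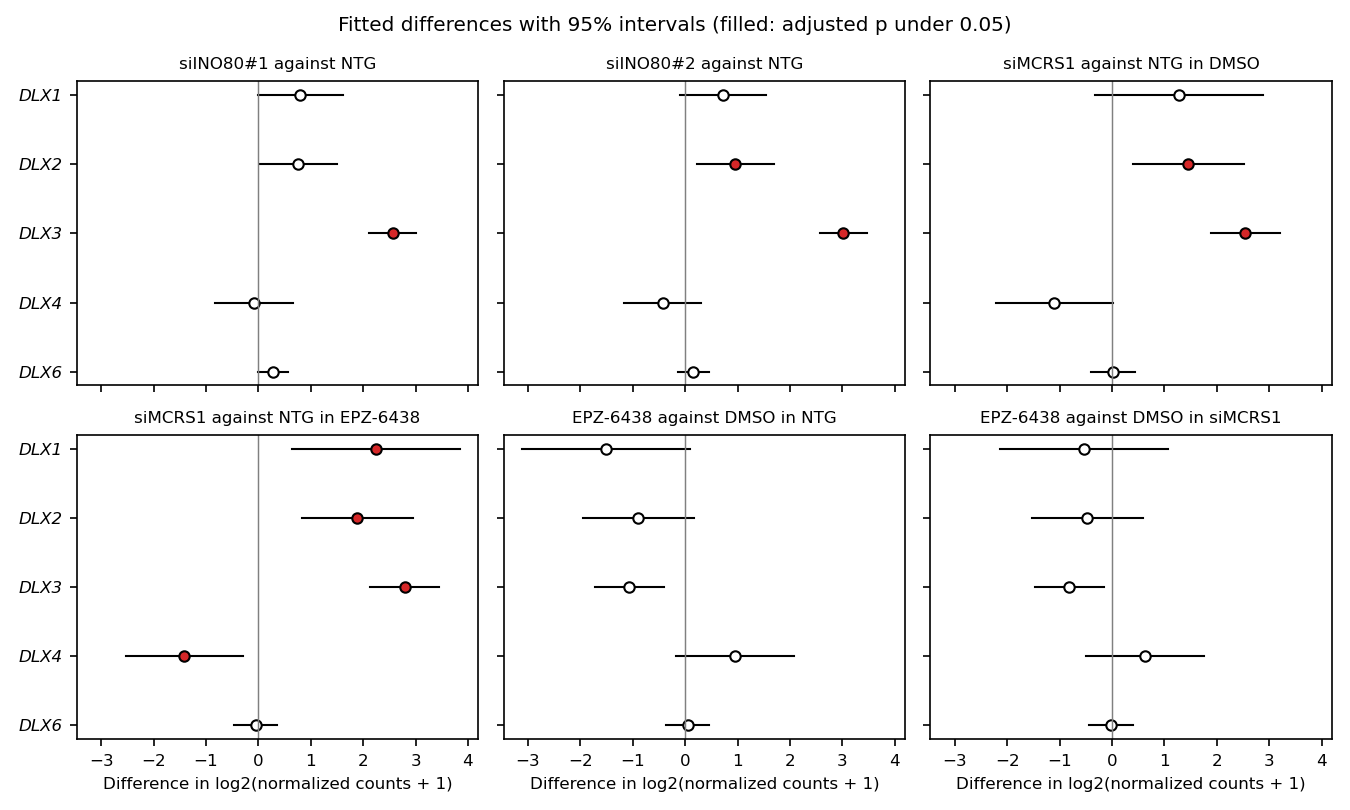
Fitted differences in log2(normalized counts + 1) (x axis) of the 5 tested DLX genes (y axis) in 6 comparisons, with 95% intervals as lines. Filled points have an adjusted p under 0.05; DLX3 is filled in all 4 comparisons of an siRNA with NTG (2.54 to 3.02), the intervals of DLX1 are the widest in the drug experiment, and no point is filled for EPZ-6438 against DMSO.

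EPZ-6438 alone was compared with DMSO in NTG cells to see how the family behaved with this EZH2 inhibitor. Its effect on EZH2 activity in these cells was not tested. Mean DLX3 was 11.9 normalized counts with EPZ-6438 against 25.8 with DMSO, without overlap, and its log2 difference was -1.07 ± 0.30 (SE, adjusted p = 0.123 by limma). In siMCRS1 cells it was likewise below DMSO without overlap, by -0.82 ± 0.30 (adjusted p = 0.423 by limma). DLX4 had the opposite sign, with means of 38.9 and 20.1 in NTG cells, no overlap and a difference of 0.95 ± 0.51 (adjusted p = 0.367). By limma and by edgeR, 0 of the 5 members were called in either comparison, and at an unadjusted p under 0.05 only DLX3 appeared in each by limma. Such a p was found for 2443 of all 14312 genes in NTG cells and for 1305 in siMCRS1 cells. Of all tested genes, the shares called with EPZ-6438 were 0.321% higher and 0.0629% lower in NTG cells, and 0.0838% higher and 0.00699% lower in siMCRS1 cells. These shares come from a fit without a replicate block. With a block by column number, 1161 genes and 0 members were called in NTG cells.

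The neighbors DLX1 and DLX2 split the EPZ-6438 libraries. In EPZ-6438 NTG, replicates 1 and 3 had 7.54 and 5.26 normalized counts of DLX1, from 7 and 5 reads. This was far below the DMSO NTG libraries (34.5 and 35.3), whereas replicate 2 had 36.2, from 51 reads, and was close to them. DLX2 was likewise lower in replicates 1 and 3, at 35.6 and 46.3 against 102 normalized counts in replicate 2. Replicate 2 was also the deepest library, with 47397233 reads against 29339336 and 29804467, and the part of depth or of this library in the result was not tested. The log2 differences from DMSO NTG were -1.51 ± 0.73 for DLX1 and -0.90 ± 0.48 for DLX2 (adjusted p = 0.317 and 0.364). Without replicate 2 they were -2.30 and -1.34 (adjusted p = 0.113 and 0.195).

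The 2 EPZ-6438 siMCRS1 libraries differed likewise. Replicate A had 29.6 and 114 normalized counts of DLX1 and DLX2, and replicate B had 115 and 374. Of the difference from DMSO siMCRS1, which was -0.54 for DLX1 and -0.47 for DLX2, the sign depended on which library was kept: 0.42 and 0.38 without replicate A, and -1.50 and -1.32 without replicate B. DLX3 also was lower in A (67.2) than in B (113.6), whereas DLX6 was slightly higher in A (187 against 163).

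**Figure D4:**
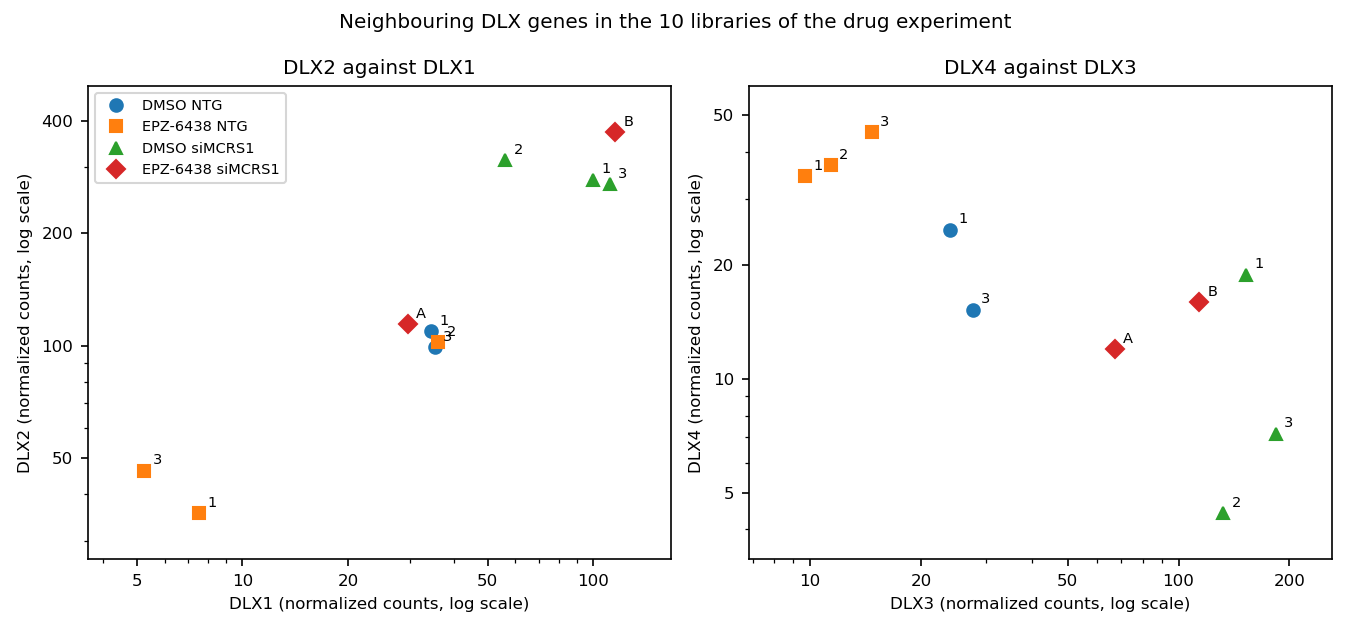
Normalized counts of DLX2 against DLX1 and of DLX4 against DLX3 in the 10 libraries of the drug experiment, with log scales on both axes. Symbols mark the 4 groups and labels the libraries; DLX1 and DLX2 are high or low in the same libraries (Pearson r = 0.95), with 1 EPZ-6438 NTG library among the DMSO NTG libraries, and DLX4 tends to be low where DLX3 is high (r = -0.82).

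Over all libraries of an experiment, DLX1 and DLX2 had a Pearson correlation of 0.73 in the INO80 experiment (9 libraries) and 0.95 in the drug experiment (10 libraries), on log2(normalized counts + 1). DLX3 and DLX4 had -0.43 and -0.82. DLX1 and DLX6, on different chromosomes, had 0.90 in the INO80 experiment and 0.11 in the drug experiment. These libraries share their groups and size factors, so the values describe the pattern and are given without a p.

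The genes most like DLX3 across libraries were CYB5R4 (r = 0.997), SLC41A1 (0.997) and AQP3 (0.996) in the INO80 experiment and IL11 (0.997), ZNF761 (0.997) and ZNF714 (0.993) in the drug experiment. AQP3, an aquaporin, ranged from 358 to 3492 normalized counts, and IL11, a cytokine, from 147 to 2452. For DLX2 they were KIF26B, ID3 and ZNF746 (0.93 to 0.96) and then ARHGEF3, GARS and INHBB (0.99 each). For DLX1 they were SGPP1, REEP3 and MSRA (0.94 to 0.96) and then PIAS3, MATN3 and PLXNA2 (0.97 to 0.98). DLX4 was followed by TMEM143, CDCA7L and RAB42 (0.87 to 0.89) and by FAM231D, CTF1 and G6PC (0.95 to 0.96). DLX6 was followed by MAGEH1, BMPR1A and DLX1 (0.90 to 0.93) and by FAM160B2, BSN and NPIPA5 (0.84 to 0.88). No gene was among the first 3 for the same member in both experiments.

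METAP1D, which encodes a mitochondrial methionine aminopeptidase, ends 3.08 kb before DLX1. It measured 249, 243 and 245 normalized counts in NTG, 159, 136 and 143 with siINO80#1 and 89.7, 87.3 and 69.9 with siINO80#2, in 3 groups without overlap. METAP1D fell by 0.75 with siINO80#1, by 1.57 with siINO80#2, and by 0.89 and 0.84 with siMCRS1 in DMSO and EPZ-6438 (log2, adjusted p = 0.000912, 3.84e-06, 0.00133 and 0.00152). HAT1, a histone acetyltransferase gene 101.8 kb from DLX1, fell by 0.61 with siINO80#2. SLC25A12, 191.3 kb from DLX1, was higher by 0.54 and 0.59 with siINO80#1 and siINO80#2. With siMCRS1 in DMSO it fell by 0.56, a call lost with quantile normalization (adjusted p = 0.149). DYNC1I2, 335.3 kb from DLX1, was higher with siMCRS1 by 0.34 in DMSO and 0.49 in EPZ-6438, calls lost with equal totals (adjusted p = 0.445 and 0.0704). PDK1, 452.5 kb from DLX2, was higher by 0.62 with siMCRS1 in EPZ-6438, a call lost with equal totals. The integrin gene ITGA6, 324.4 kb from DLX2, was higher with siINO80#1 (0.57), siINO80#2 (1.22) and siMCRS1 (0.66 in DMSO, 0.83 in EPZ-6438), although its call with siMCRS1 was lost in DMSO with equal totals (adjusted p = 0.0556) and in both media with quantile normalization (0.186 and 0.0936).

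Beside DLX3, the integrin gene ITGA3 (60.9 kb away) was higher by 0.83 with siINO80#2 but fell by 1.94 with siMCRS1 in both media (adjusted p = 0.000291, 0.0012 and 0.000929). PDK2, a kinase that restrains pyruvate dehydrogenase, fell by 1.15 and 1.26 with siMCRS1 in DMSO and EPZ-6438. Around DLX6, SDHAF3 (106.7 kb away) fell by 0.41 and 0.39 with siINO80#1 and siINO80#2, the second not called with quantile normalization (adjusted p = 0.0702). SLC25A13 (683.5 kb) fell by 0.28 with each. Farther off, ASNS, the asparagine synthetase gene (840.6 kb), fell by 1.42 and 1.27 with siINO80#1 and siINO80#2. The dynein gene DYNC1I1 (895.2 kb) was higher by 1.52 and 1.09. DYNC1I1, with an NTG mean of 9.84 normalized counts, passed the filter through the siINO80 libraries. SHFM1 was called higher with siMCRS1 in EPZ-6438, a call lost with equal totals. It measured 2188, 1887 and 2041 normalized counts in EPZ-6438 NTG and 2481 and 2600 in EPZ-6438 siMCRS1. Of the 14 listed neighbors tested, 3 were higher and 4 lower with siINO80#1, 4 and 5 with siINO80#2, 2 and 4 with siMCRS1 in DMSO, and 4 and 3 in EPZ-6438. The shares of all tested genes were 20.7% higher and 20.8% lower, 26.6% and 28.4%, 23.1% and 24.6%, and 26.8% and 26.9% in the same order, and for so few neighbors nothing is read from the counts. With equal totals the siMCRS1 counts were 0 and 6 in DMSO and 1 and 4 in EPZ-6438. No neighbor was called for EPZ-6438 against DMSO by limma, with 2 at an unadjusted p under 0.05 in NTG cells and 0 in siMCRS1 cells. Among all 14312 genes, 2443 and 1305 had such a p.

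**Figure D5:**
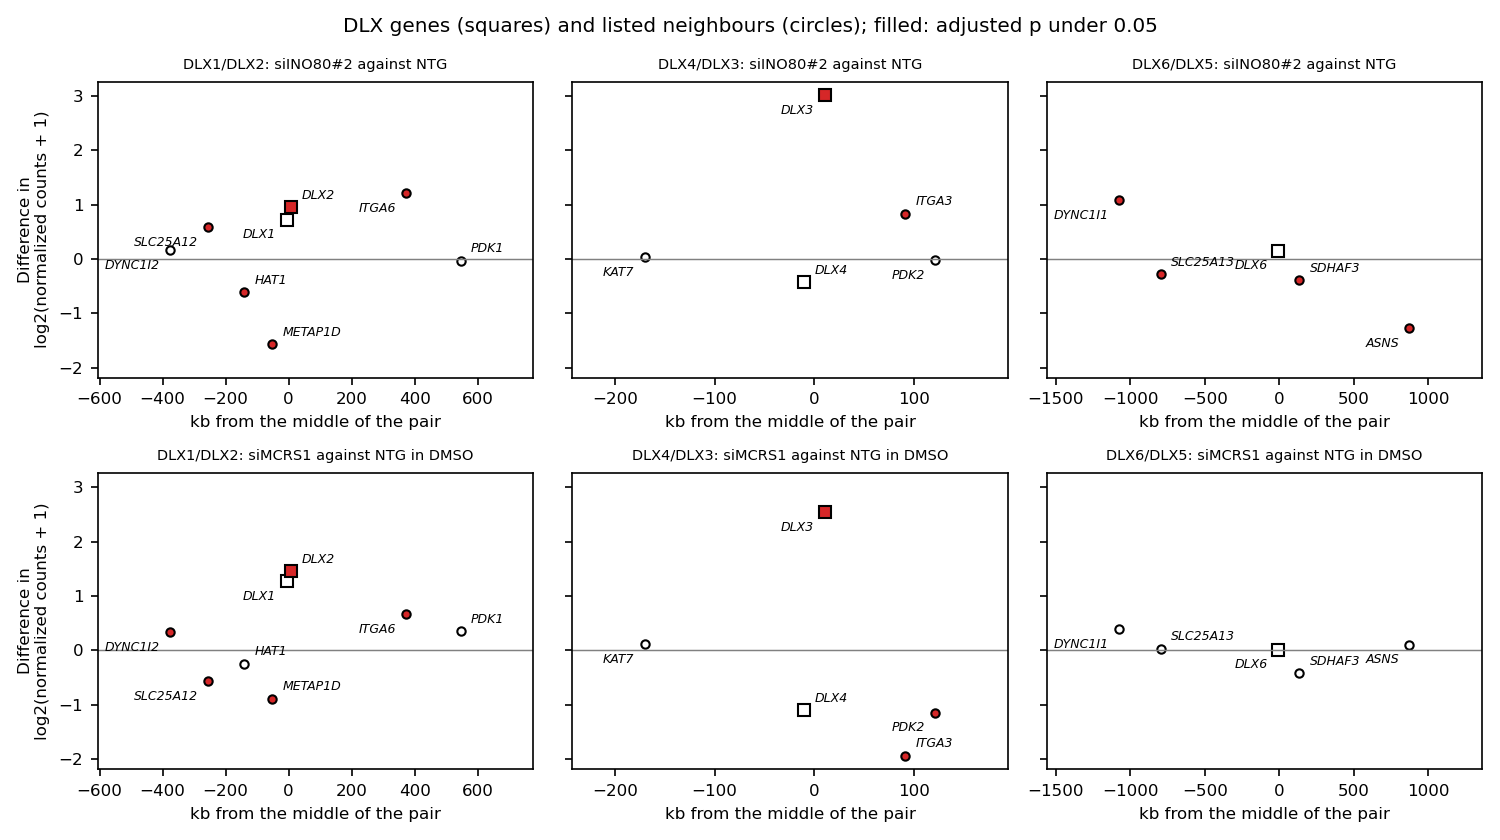
Fitted difference in log2(normalized counts + 1) (y axis) of tested DLX genes (squares) and listed neighbors (circles) against distance of the gene's middle from the middle of each DLX pair in kb (x axis), for siINO80#2 against NTG (top) and siMCRS1 against NTG in DMSO (bottom). Filled symbols have an adjusted p under 0.05; METAP1D lies beside DLX1 and below 0 in both rows, and DLX3 stands above 2.5 while DLX4 and, with siMCRS1, ITGA3 and PDK2 lie below 0.

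Genes of the BMP pathway, which can act upstream of the family, were counted beside it. Of the 20 listed ligands, receptors, antagonists and SMADs, 14 were tested in the drug experiment. In DMSO 8 were higher and 0 lower by limma, with 8 at an unadjusted p under 0.05 (median log2 difference 0.43, against 0.0017 for all genes, of which 23.1% were called higher and 24.6% lower). An unadjusted p under 0.05 was found there for 7812 of all 14312 genes. In EPZ-6438 8 were higher and 1 lower (median 0.57, against 0.0060 for all genes, with 26.8% and 26.9% called). With equal totals the counts were 5 and 0 in DMSO and 7 and 2 in EPZ-6438. BMP2, a ligand, had a mean of 2.39 normalized counts in DMSO NTG, under the level of 3 reads, and of 15.4 in DMSO siMCRS1, and was higher by 2.26 (adjusted p = 0.0272). It passed the filter through siMCRS1 libraries, and it is 1 of the 8. The type I receptor gene ACVR1, the type II receptor gene ACVR2A and SMAD5, which carries the signal to the nucleus, were higher by 0.76, 0.77 and 0.77. In the INO80 experiment 6 of 13 were higher and 1 lower with siINO80#1 and 4 and 0 with siINO80#2 (2 and 1 with equal totals), beside 20.7% and 20.8% and 26.6% and 28.4% of all genes, and the ligand gene BMP6 fell by 1.56 with siINO80#1.

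The early BMP target genes were counted next. With siINO80#2, 3 of 9 tested were higher and 3 lower. HEY1, a transcriptional repressor, and BAMBI, a decoy receptor, were higher by 1.34 and 0.84, whereas SMAD7, an inhibitor of the pathway, and ID1, which encodes an inhibitor of helix-loop-helix factors, fell by 0.88 and 0.71. With siINO80#1, 1 was higher and 1 lower, and with siMCRS1 4 were higher and 0 lower in DMSO and 2 and 1 in EPZ-6438. With equal totals the siMCRS1 counts became 3 and 1 and 1 and 1, and the median of the 9 genes turned from 0.21 to -0.023 in DMSO and from 0.14 to -0.095 in EPZ-6438. That scaling also cost ID3 its call as higher with siINO80#2 (adjusted p = 0.0572 by limma), and ID4 was then called lower (0.0452). Among all tested genes 20.7% were called higher and 20.8% lower with siINO80#1, and 26.6% and 28.4% with siINO80#2. The shares with siMCRS1 were 23.1% and 24.6% in DMSO and 26.8% and 26.9% in EPZ-6438. For these 9 genes nothing is read from the counts. Of 6 genes for proteins known to interact with DLX factors, 3 were tested. By limma 0 of them were called with siINO80#1, with 0 at an unadjusted p under 0.05 beside 6944 of all 14034 genes. With siINO80#2 1 was lower, MAGED1 (by 0.31). With siMCRS1, MSX1 and SMAD4 were higher by 0.65 and 0.52 in DMSO and by 0.29 and 0.57 in EPZ-6438; with equal totals SMAD4 lost its call in DMSO (adjusted p = 0.0582) and MSX1 in EPZ-6438 (0.698).

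Most genes known to act downstream of DLX factors were too low to test: 4 of 16 passed the filter in the INO80 experiment and 5 of 16 in the drug experiment. RUNX2, the master regulator of bone formation, had 1.91 and 3.82 normalized counts in DMSO NTG and 24.5, 15.4 and 28.6 in DMSO siMCRS1, and was higher by 2.63 ± 0.46 (log2, SE, adjusted p = 0.000956). Its mean reached 10 only through the siMCRS1 libraries. In EPZ-6438 it had 7.54, 4.26 and 5.26 in NTG and 13.6 and 18.6 in siMCRS1, a rise of 1.37 ± 0.46 (adjusted p = 0.0269, and 0.0616 with equal totals). In the INO80 experiment it stayed under the filter, at 2.23 to 13.3 in NTG and 3.83 to 11.2 with the siRNAs. KLF4, an epidermal factor, and NRP2, a receptor of migrating neurons, were higher by 1.13 and 1.37 with siMCRS1 in DMSO and by 1.80 and 0.83 in EPZ-6438, where NRP2 lost its call with equal totals (adjusted p = 0.126). ALPL, the bone phosphatase, fell by 1.55 and 1.44, from means of 5.74 and 31.2 normalized counts to 1.22 and 10.1, the first of which lies below the level of 3 reads, and neither call held with quantile normalization (adjusted p = 0.267 and 0.0989). The mean of ALPL reached 10 only through the EPZ-6438 NTG libraries, which are the controls of the second difference. With siINO80#1, 0 of the 4 were called by limma and 0 had an unadjusted p under 0.05, beside 6944 of all 14034 genes. With siINO80#2 1 was higher, NRP2 (0.87).

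The summed osteoblast markers, which include RUNX2 and ALPL, went from 9.54 to 9.57 in DMSO NTG, 17.6 to 30.1 in DMSO siMCRS1, 25.9 to 50.4 in EPZ-6438 NTG and 24.8 to 29.3 in EPZ-6438 siMCRS1, with 1 of the 5 (SP7) at 0. The 5 fibroblast markers also differed with siMCRS1, from 236 to 283 in DMSO NTG to 373 to 794 in DMSO siMCRS1, and from 119 to 207 in EPZ-6438 NTG to 642 to 791 in EPZ-6438 siMCRS1. COL1A1, a collagen gene, carried most of this, with a mean of 623 in DMSO siMCRS1 (log2 difference 1.25, adjusted p = 0.0337, and 0.0724 with equal totals). With siINO80#1 the fibroblast sum was 140.7 to 208.2 and with siINO80#2 80.4 to 107.7, against 102.6 to 147.8 in NTG. Each siRNA group overlapped NTG. The sum of the 5 keratinocyte markers was 616 to 688 in DMSO NTG and 773 to 879 in DMSO siMCRS1, and 592 to 735 in EPZ-6438 NTG and 822 to 956 in EPZ-6438 siMCRS1, without overlap in either medium. KRT10, a keratin gene that made up nearly all of it, was higher by 0.43 in EPZ-6438 (adjusted p = 0.0173, and 0.223 with equal totals), whereas its difference of 0.34 in DMSO did not pass (adjusted p = 0.0523). In the INO80 experiment the keratinocyte sums overlapped, at 262.1 to 321.6 in NTG, 196.7 to 293.0 with siINO80#1 and 249.0 to 366.1 with siINO80#2, with KRT5 and KRT1 at 0. The part of such cells in the DLX values was not tested.

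Homeobox genes of the related NKL class were counted as well. Of the 26 listed, 7 were tested in each experiment, and 0 were higher and 2 lower with siINO80#1, 0 and 3 with siINO80#2, and 1 and 3 with siMCRS1 in each medium. Among all tested genes 20.8%, 28.4%, 24.6% and 26.9% were called lower in these comparisons, and with 7 genes nothing is read from the counts. LBX2 fell by 1.21 and 1.89 with siINO80#1 and siINO80#2 and by 1.94 and 2.58 with siMCRS1 in DMSO and EPZ-6438. TLX2 fell by 1.57, 1.69, 2.70 and 2.91 in the same order, and EMX1, a cortical factor, fell by 2.47 and 1.91 with siMCRS1, the second not called with quantile normalization (adjusted p = 0.0513). With equal totals 1 was higher and 4 lower with siMCRS1 in DMSO, and 0 and 4 in EPZ-6438; with quantile normalization the latter were 2 and 2. MSX1 was higher with siMCRS1, as given above. The genes of the PRC2 core themselves were lower in 4 of 6 cases with siINO80#1 and 5 of 6 with siINO80#2, among them SUZ12 (by 0.60) and EZH2 (by 0.47) with the latter, and in 2 of 6 and 1 of 6 with siMCRS1 in DMSO and EPZ-6438, beside the same 20.8%, 28.4%, 24.6% and 26.9% of all genes. With siMCRS1 EZH1 fell by 0.44 and 0.67, calls that were lost with quantile normalization (adjusted p = 0.302 and 0.0652). With equal totals the PRC2 counts with siMCRS1 were 6 of 6 and 4 of 6. That scaling called 5098 and 5313 of all 14312 genes lower, with an all-gene median of -0.23 in both media.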

How the data were processed

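RNA was taken from HepG2 cells, and libraries were made with a stranded mRNA kit. The submitters' processing notes name kallisto, DESeq2 and GRCh38 without versions or roles. The deposited signal values (normalized counts) are reads per gene symbol divided by 1 size factor per library, as the authors deposited them: within a tolerance of 0.001, 100% of values were whole multiples of 1 read. Columns were matched to groups by their names, and all 19 libraries were used (0 columns were left unused). No 2 libraries of a group agreed within sampling noise (17 pairs, with chi-square values of 9.45 to 121 for each degree of freedom).

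Values were tested on log2(value + 1), with a filter of a mean of at least 10, by limma 3.58.1 in R 4.3.3 (lmFit, eBayes with a trend), with all groups of an experiment in 1 fit and Benjamini-Hochberg adjustment over all genes tested. These were the deposited values, not raw counts; reads recovered from them went to edgeR 4.0.16 as an alternative. The other alternatives were other pseudocounts, filters and scalings, no trend, the compared groups alone, the replicate letters, or the numbers of 3 drug groups, as a block, and each library left out. The test script was checked on simulated data. Intervals of fitted differences are at 95%, and precision is limited by 2 or 3 libraries per group and, for DLX5, by few reads. Transcript lengths came from GENCODE transcripts lifted to the build before GRCh38, and coordinates and promoters from RefSeq tables on GRCh38.p14. The notes name GRCh38 without a patch.

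The 6 members, the gene lists and the tests were chosen with earlier results of these data known. Named genes were all members, the siRNA targets, up to 4 called genes of a list with the largest differences, called neighbors of the pairs, and the 3 genes most correlated with each member. Of the neighbor list, 17 of 23 symbols were in the tables; SHFM1, which RefSeq gives as a synonym of both SEM1 and DLX5, was kept among the neighbors because DLX5 has its own row.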

Additional observations from a re-analysis of the deposited data

How the results depend on the processing

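DLX3 kept its direction and its call in every alternative run for the 4 comparisons of an siRNA with NTG (21 of 21 for siMCRS1 in DMSO and 20 of 20 for the others), with log2 differences of 2.20 to 2.70 (siINO80#1), 2.63 to 3.14 (siINO80#2), 2.31 to 2.74 (siMCRS1, DMSO) and 2.42 to 3.18 (siMCRS1, EPZ-6438). Over all members and comparisons, 738 alternative values kept direction and side of the threshold, 22 lost a call, 7 gained one and 27 changed sign. The cause of these changes was not tested. The alternatives counted include some that cannot alter a log2 difference, only its p. These are another filter, no trend, the compared groups alone, the replicate letters as a block, and leaving out a library of a group not compared. With each library left out in turn, the number of members called ranged from 1 to 3 with siINO80#1, siINO80#2 and siMCRS1 in DMSO, and from 1 to 4 with siMCRS1 in EPZ-6438, where it was 2 without EPZ-6438 NTG replicate 1 or 3 and 1 without EPZ-6438 siMCRS1 replicate B. Members called were 1 with siINO80#2 under equal totals and 1 with siMCRS1 in DMSO without a trend (DLX3 in both). With only the groups compared, DLX1 passed with siMCRS1 in DMSO (adjusted p = 0.0172) and was lost in EPZ-6438 (0.0505). DLX4 in EPZ-6438 was lost with no filter (0.0718) and quantile normalization (0.108). At a filter of 50, DLX4 in both experiments and DLX1 in the INO80 experiment gave no value.

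The letters A, B and C are shared by the groups of the INO80 experiment. In deviations from group means, 9 same-letter pairs correlated by -0.08 to 0.26 (mean 0.10) and 18 others by -0.25 to 0.10 (mean -0.05). Subtracting group means pulls the others below 0 whenever same-letter pairs lie above it, so the 2 means are not separate evidence. Whether the letters pair libraries was not settled, and the main fit used no block. With the replicate block, 2 members were called with siINO80#1 (DLX1 and DLX3) and 3 with siINO80#2 (DLX1 to DLX3), and 6327 and 8127 of all genes against 5833 and 7725. In the drug experiment the columns of 3 groups carry numbers and those of EPZ-6438 siMCRS1 letters. Same-number pairs of the 3 groups correlated by -0.017 to 0.30 (7 pairs, mean 0.21) and others by -0.30 to 0.041 (14 pairs, mean -0.10). Group means were subtracted here too. The 1 same-number pair below 0 was that of the replicates 2, and DMSO siMCRS1 replicate 2 did not correlate best with its own number. Whether the numbers pair libraries was likewise not settled, and the main fit used no block. A replicate block by these numbers over the 8 numbered libraries, chosen after seeing the data, called 1161 genes for EPZ-6438 in NTG against 55, with 0 members (DLX2 and DLX3 at adjusted p = 0.0515 and 0.0547). For siMCRS1 in DMSO it called 8000 genes against 6830 and the members DLX2 and DLX3, and DLX6 turned to -0.024. The comparisons with EPZ-6438 siMCRS1 were not fitted with a block, since matching its letters to numbers would be a guess.

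Over all genes, calls with each library left out were 1948 to 3476 between the siINO80 siRNAs (3096 with all; 1948 without siINO80#1 replicate A and 2040 without replicate C), 5060 to 7573 for siMCRS1 in EPZ-6438 (7686 with all; lowest without EPZ-6438 siMCRS1 replicate B), 2 to 70 for EPZ-6438 in NTG (55 with all; 2 and 8 without DMSO NTG replicates 3 and 1, and 19, 20 and 4 without EPZ-6438 NTG replicates 1, 2 and 3), 0 to 26 for EPZ-6438 in siMCRS1 (13 with all; 0 without EPZ-6438 siMCRS1 replicate A, 26 without DMSO siMCRS1 replicate 2, and 1 to 7 without any other library but DMSO siMCRS1 replicate 1, which gave 11) and 0 to 3 for the interaction (0 with all; 3, 1 and 2 without DMSO siMCRS1 replicates 1 and 3 and EPZ-6438 NTG replicate 1). For EPZ-6438 in NTG there were 20 with no filter, 85 with quantile normalization and 19 without a trend. For EPZ-6438 in siMCRS1 there were 4 with no filter, 7 without a trend and 0 with only the groups compared.

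Differences that changed sign were not called with all libraries. With each library left out they were -0.37 to 0.071 for DLX4 with siINO80#1, -0.24 to 0.13 and -0.00495 to 0.33 for DLX1 and DLX2 between the siINO80 siRNAs, -1.50 to 0.42 and -1.32 to 0.38 for DLX1 and DLX2 with EPZ-6438 in siMCRS1, and for DLX6 -0.076 to 0.19 and -0.12 to 0.075 with EPZ-6438 in NTG and siMCRS1 and -0.078 to 0.064 and -0.20 to 0.068 with siMCRS1 in DMSO and EPZ-6438. The interaction ranged from -0.42 to 1.28 for DLX2, -0.12 to 0.63 for DLX3, -0.73 to 0.21 for DLX4 and -0.21 to 0.053 for DLX6. For DLX6, quantile normalization gave -0.087 with EPZ-6438 in NTG, 0.37 with siMCRS1 in EPZ-6438 and 0.040 for the interaction, and equal totals gave 0.000297 with EPZ-6438 in siMCRS1 and -0.22 with siMCRS1 in DMSO.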
